A study of Citrullus lanatus with 30 samples.

Results

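Short loci of watermelon (Citrullus lanatus) were those whose span, counted from their first to their last base, was 400 bp or less, whatever their level. They numbered 1730 of the 22596 loci with a deposited level, and were set against the 12804 loci of 1000 to 5000 bp. Levels were FPKM (fragments per kilobase of length, scaled to the library's mapped fragments) from RNA-seq of fruit. Which length entered them is not given. Rind came as R2_RF (30 DAP), R4_RF (30 DAP) and R4_CT (20 DAP), with 2 libraries each; DAP is commonly used for days after pollination, and the labels do not say what R2 and R4 stand for. Their source is given as rind and their tissue as flesh, and they are called rind here after the source. Flesh of 20 DAP came as 3 libraries labelled 5_Aza, with the treatment written as 5-zazcytidine and no dose, time or genotype, and 3 labelled Mock, with the genotype Wild-type. Flesh over development came as 3 libraries per stage, labelled PD at 0 DAP, AP at 1 DAP, SW at 5 DAP, BW at 10 DAP, CT at 20 DAP and RF at 30 DAP. Rind and stage libraries are labelled as cultivar 97103, and no cultivar is given for the 5_Aza and Mock libraries. No label says that libraries of a group came from separate fruits, so the p-values rest on the spread between libraries alone, and that spread may be technical.

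Plant genomes hold many short genes. Among them are genes for secreted peptides that act as signals or in defence, for lipid transfer proteins and metallothioneins, and for small ribosomal proteins, and several of these classes are known for very high transcript levels in growing or ripening fruit. A short locus in an annotation can also be a fragment of a longer gene or a prediction that is rarely transcribed. Short transcripts yield few sequencing fragments, because a library fragment has to fit inside them. The deposited values name loci by coordinates only, on 11 chromosomes of a sequence set named WM97pbV1 (chr1 below stands for WM97pbV1_Chr01 and so on) and on scaffolds, so no locus below carries a gene name, and tissue labels were not checked against marker genes here.

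Of the 30 libraries, 28 were used. The values of AP replicates 1 and 2 did not follow the loci, with a highest correlation with any other library of 0.00865 and 0.00772, and 1 DAP rests on AP replicate 3 alone. From PD replicate 3, 11643 values were used 1 row further on, where their correlation with PD replicate 1 was 0.993, against 0.119 as deposited. One block of 50 rows each was left out in AP replicate 3 and CT replicate 1, which took 4 short loci out of CT replicate 1. Missing rows and that block left 11 short loci of AP replicate 3 without a value. The 16 stage libraries and the 12 others were deposited in different number formats. Rind, Mock or 5_Aza against stage flesh thus crosses formats, whereas R4_CT against Mock, 5_Aza against Mock, and rind against rind do not. In bulk tissue, fewer cells of a type and less RNA per cell cannot be told apart.

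The short loci were 150 to 400 bp long with a median of 302.5 bp, and 8 of them had exactly 400 bp. The length of 1401 of them (81.0%) was a multiple of 3, against 40.7% of loci of 1000 to 5000 bp and 46.2% of all loci. That share was 95.5% at 150 to 200 bp and 70.6% at 351 to 400 bp. A span that is a coding length without introns is a multiple of 3. They made up 7.02% to 9.08% of the loci on each of the 11 chromosomes and 10 of 55 loci (18.2%) on scaffolds. None overlapped another locus. Their nearest neighbour lay a median of 1694 bp away, against 2105 bp for loci of 1000 to 5000 bp, and 38.4% of them, against 27.4%, had one within 1000 bp. A short locus was next to another short locus in 24.2% of cases, against 13.4% of the longer loci. At the limit itself, the 166 loci of 381 to 400 bp and the 170 of 401 to 420 bp had different medians in the stage groups, lower beyond 400 bp in each of the 6. In SW they were 1.08 FPKM for 381 to 400 bp and 0.293 FPKM for 401 to 420 bp, and in CT 0.258 and 0.189 FPKM. Mock (0.762 and 0.586 FPKM) and 5_Aza (0.935 and 0.826 FPKM) had the same order as the stages. In the 3 rind groups the order was the other way, as in R4_CT with 0.726 FPKM for 381 to 400 bp and 0.976 FPKM for 401 to 420 bp. The share of these loci at 1 FPKM or more differed most in SW, at 50.6% for 381 to 400 bp and 41.2% for 401 to 420 bp.

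What 1 FPKM stands for changed steeply within this length range. In the 16 stage libraries, the low values of loci of one length were whole multiples of a smallest step, the worth of 1 fragment. Steps were looked for at the 251 lengths from 150 to 900 bp that are multiples of 3 and were found at 89 to 118 of them in each library. Among short loci of such lengths, 92.2% to 95.0% of 468 to 588 low values per library were whole multiples within 0.05 of a fragment. At 201 bp, 1 fragment was worth 1.03 to 1.74 FPKM (median 1.25). At 300 bp it was worth 0.268 to 0.428 FPKM, and at 399 bp 0.14 to 0.213 FPKM (median 0.159). A fragment thus counted 7.86 times as much at 201 bp as at 399 bp, where the lengths differ 1.99 times. From 450 to 900 bp the slope of the steps corresponded to 25600000 to 36200000 fragments per stage library. The 12 other libraries showed a step at no more than 1 length, and their depth is unknown.

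**Figure D1:**
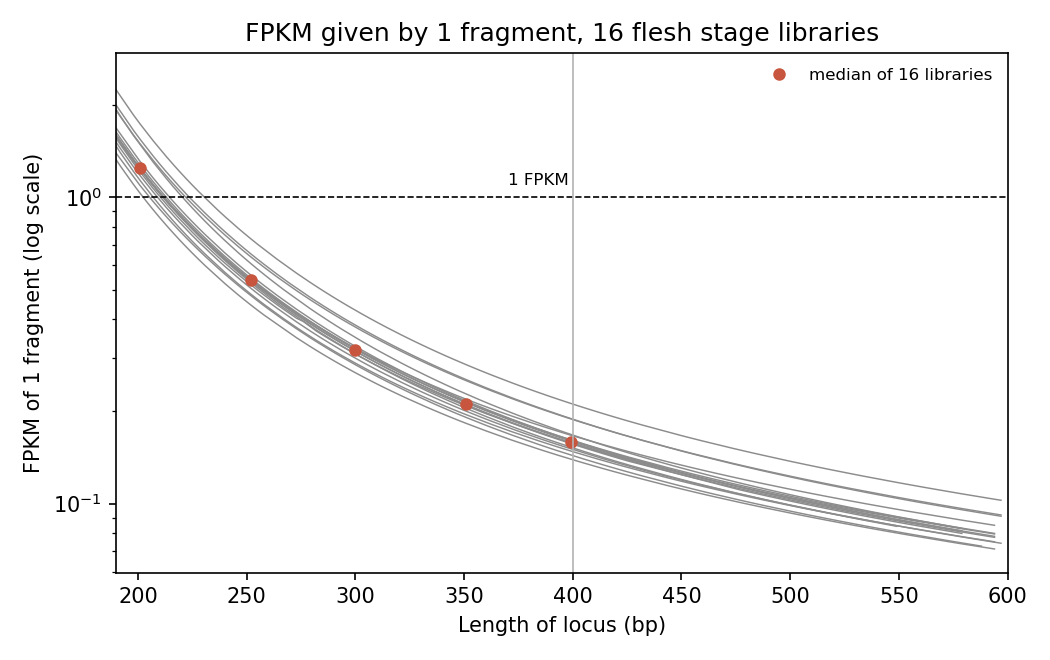
FPKM given by 1 fragment (log scale) against the length of the locus in bp, with 1 grey line for each of the 16 stage libraries and red points for their median at 201, 252, 300, 351 and 399 bp. The dashed line marks 1 FPKM and the vertical line 400 bp: at 201 bp a single fragment is worth 1.25 FPKM in the median library, and at 399 bp 0.159 FPKM.

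Because of these steps, a small share of the fragments carried a larger share of the summed FPKM. Short loci whose fragments could be counted, which all have a multiple of 3 as their length, 1341 to 1380 of them per library, held 0.336% to 1.26% of the fragments of a stage library but 5.3% to 16% of its summed FPKM. Among those at 1 FPKM or more, 22.4% to 31.8% rested on fewer than 10 fragments, and 6 to 25 loci per library on a single one. Fragment numbers are given below where they could be read. They are estimates from the deposited FPKM.

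Fewer short loci than longer ones were detected. In each of the 28 libraries 38.9% to 48.0% of the short loci reached 1 FPKM, against 65.0% to 74.9% of loci of 1000 to 5000 bp. The detected share was 46.0% ± 0.707 in R2_RF, 46.1% (both libraries) in R4_RF and 47.2% ± 0.424 in R4_CT (SD, n = 2 each). It was 46.7% ± 0.2 in 5_Aza and 43.0% ± 0.643 in Mock (SD, n = 3 each). Over the stages it was 45.6% ± 0.306 in PD, 47.4% in AP, 47.5% ± 0.557 in SW, 43.9% ± 0.379 in BW, 39.1% ± 0.153 in CT and 39.9% ± 0.586 in RF (SD, n = 3 except AP with 1 library). CT and RF were lowest, and their libraries did not overlap those of any other group. Longer loci had their lowest shares in the same groups, at 65.1% ± 0.153 in CT and 65.2% ± 0.115 in RF.

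The median short locus had 0 to 0.793 FPKM in a library, against 5.11 to 9.35 FPKM for longer loci. Among loci that reached 1 FPKM the medians were closer, at 10.2 to 12.5 FPKM for short loci and 15.1 to 17.9 FPKM for longer ones. A listed 0 was given for 42.3% to 51.7% of short loci in stage libraries, and for 32.9% to 40.4% in the Mock, 5_Aza and rind libraries. For longer loci both sets lay between 12.6% and 18.5%. Short loci at 100 FPKM or more were 3.93% to 6.11% of the class per library, against 6.65% to 8.75% of the longer loci.

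**Figure D2:**
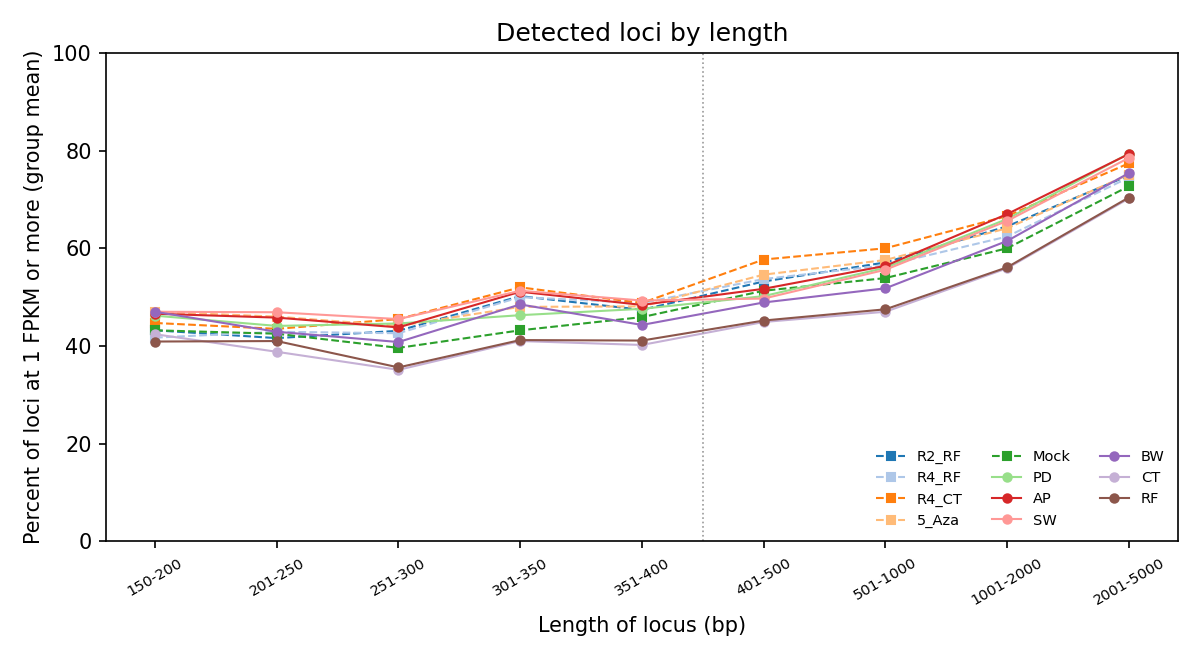
Percent of loci with a group mean of 1 FPKM or more against the length of the locus in bp, with 1 line per group (dashed with squares for rind, 5_Aza and Mock, solid with circles for flesh stages). From 150 to 400 bp, left of the dotted line, the groups lie between 35.1% and 52.0%, and at 2001 to 5000 bp between 70.2% and 79.4%.

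Although few were abundant, short loci held a sizeable and changing part of the summed FPKM. Their share was 9.21% and 8.96% in R2_RF, 7.72% and 7.25% in R4_RF, and 8.62% and 7.79% in R4_CT. It was 6.95%, 6.46% and 6.82% in 5_Aza, against 6.23%, 6.04% and 5.76% in Mock, so that the lowest 5_Aza library was above the highest Mock library. Over the stages it was 8.57%, 8.55% and 8.62% in PD, 9.60% in AP, 7.36%, 7.36% and 7.20% in SW, 10.4%, 10.2% and 10.2% in BW, 17.4%, 17.5% and 13.8% in CT, and 7.38%, 7.34% and 7.40% in RF. The 20 DAP flesh of the stage series thus stood above every other group, whereas the Mock flesh of the same age was the lowest of all. CT and Mock differ in number format, and Mock has no cultivar label. The part of either in this contrast was not tested. Loci of 1000 to 5000 bp held 54.6% to 63.7% in every library, with their lowest group mean, 55.7% ± 1.65 (SD, n = 3), in CT. Shares of one sum depend on each other, so a high share of short loci lowers that of longer loci.

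Much of this share came from a few loci. The 10 highest short loci held 33.1% to 80.6% of the class sum per library, against 5.96% to 14.1% for the 10 highest loci of 1000 to 5000 bp. In CT, the single highest short locus held 12.7%, 12.8% and 8.77% of the summed FPKM. Without it the short loci held 4.79% in CT, below the 6.18% in RF and the 6.06% in BW computed the same way. The highest locus stayed in the total to which these shares refer. Leaving out the highest locus of each group gave 5.18% in R2_RF, 6.13% in R4_RF, 6.58% in R4_CT, 4.73% in 5_Aza and 4.46% in Mock. The 5_Aza libraries, at 4.54% to 4.85%, then overlapped those of Mock, at 4.24% to 4.67%. Over the early stages the same step gave 7.54% in PD, 8.38% in AP and 6.84% in SW. Counted in this way the share was highest at 0 and 1 DAP and the CT peak was gone. Group means of 1000 FPKM or more were reached by 29 short loci in at least 1 of the 11 groups, 6 of them in a single group and none in all 11. At 100 FPKM the numbers were 220 loci in at least 1 group (12.7% of the class, against 16.2% of longer loci), 50 in a single group and 20 in all.

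**Figure D3:**
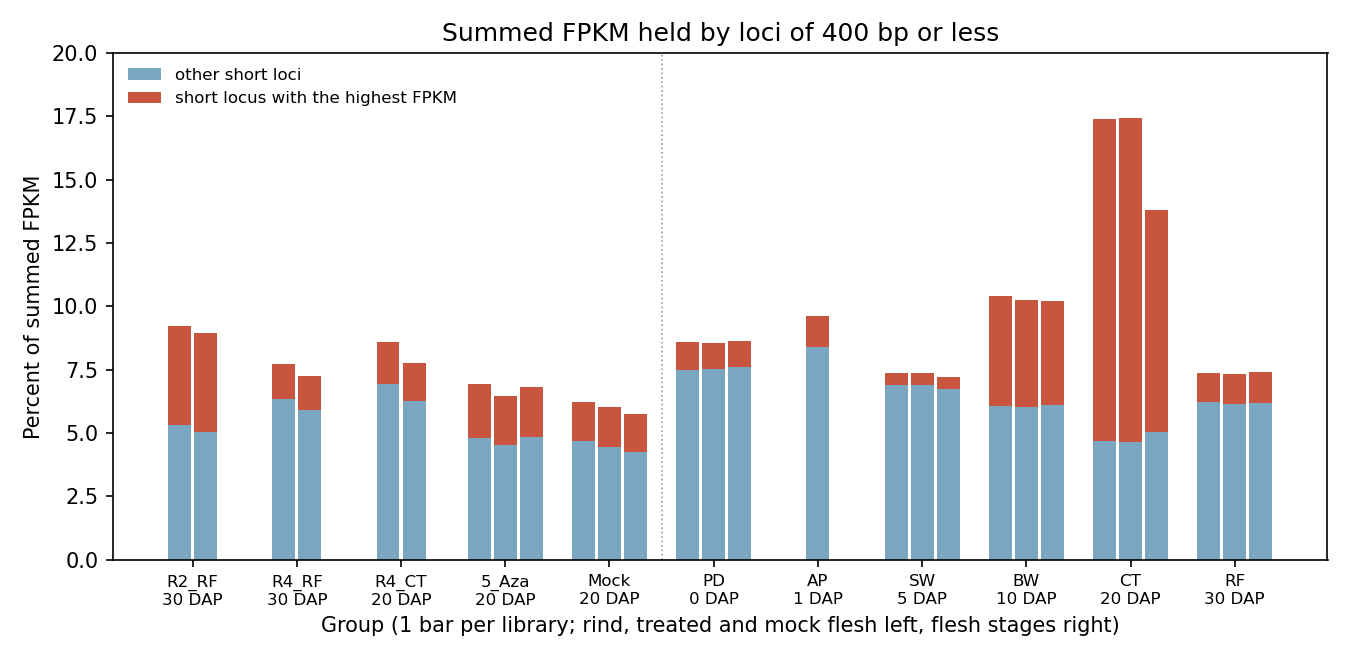
Percent of the summed FPKM of each library held by loci of 400 bp or less, with 1 bar per library, the locus with the highest FPKM in red on top of all other short loci in blue. The red part reaches 12.8% in CT replicate 2, while the blue part stays between 4.24% and 8.38% in all 28 libraries.

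The highest short locus of a group was one of 5 loci. They were the highest of their class in 1 or more groups, and together they held 15.2% to 75.1% of the class sum. The locus at chr10:21559312-21559608 (297 bp) was highest in 5_Aza, Mock, BW, CT and RF. It had 17931, 16088 and 16523 FPKM in 5_Aza, against 13237, 13252 and 12830 FPKM in Mock. Over the stages it had 15.4, 16.3 and 44.5 FPKM in PD, 55.6 FPKM in AP, 3163, 3150 and 2875 FPKM in SW, 35751, 34428 and 33008 FPKM in BW, 109151, 110618 and 77731 FPKM in CT, and 9372, 9502 and 9779 FPKM in RF. Its level climbed through 20 DAP and was lower again at 30 DAP, with no overlap between neighbouring stages from SW on. In CT these values correspond to about 324977, 336582 and 282724 fragments. In rind it had 24.7 and 23.5 FPKM in R2_RF, 7045 and 5507 FPKM in R4_RF, and 5219 and 3522 FPKM in R4_CT. Mock flesh, of the same labelled age as CT, averaged 13106 ± 240 FPKM against 99167 ± 18578 FPKM in CT (SD, n = 3 each). This contrast crosses number formats too.

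The locus at chr6:7824799-7825077 (279 bp) was highest in R2_RF, R4_CT and AP. It had 33931 and 34620 FPKM in R2_RF, 3201 and 2962 FPKM in R4_RF, and 14687 and 13520 FPKM in R4_CT. In 5_Aza it had 175, 166 and 186 FPKM, against 15.7, 13.5 and 9.4 FPKM in Mock. Young fruit was also high, with 4492, 4707 and 4451 FPKM in PD and 10460 FPKM in AP, and later flesh lay between 48.0 and 156 FPKM. This locus was thus high in rind and in the first stages and low in flesh from 5 DAP. The locus at chr9:9611770-9612140 (371 bp) was highest in R4_RF, with 11809 and 11819 FPKM, against 2111 and 2038 FPKM in R2_RF and 7679 and 7302 FPKM in R4_CT. In flesh it had 38.7, 38.8 and 44.0 FPKM in PD, 142 FPKM in AP, 274, 263 and 269 FPKM in SW, 1156, 1137 and 1120 FPKM in BW, 2448, 2373 and 2974 FPKM in CT, and 2542, 2437 and 2409 FPKM in RF. Its levels in CT and RF overlapped, and all earlier stages were lower.

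The remaining pair of the 5 marked young flesh. The locus at chr2:2337240-2337639, which at 400 bp lies on the length limit, was highest in PD, with 8936, 8142 and 8140 FPKM there, 6188 FPKM in AP, 1579, 1573 and 1572 FPKM in SW, 1118, 1069 and 1095 FPKM in BW, 50.8, 59.5 and 59.0 FPKM in CT, and 6.69, 3.91 and 7.48 FPKM in RF. The one at chr7:31179192-31179497 (306 bp) was highest in SW, with 2727, 2653 and 2813 FPKM in PD, 5187 FPKM in AP, 3413, 3599 and 3596 FPKM in SW, 1415, 1383 and 1357 FPKM in BW, 72.6, 73.3 and 69.7 FPKM in CT, and 15.8, 14.3 and 18.3 FPKM in RF. Both were low in rind, at no more than 52.2 FPKM in any of the 6 libraries.

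**Figure D4:**
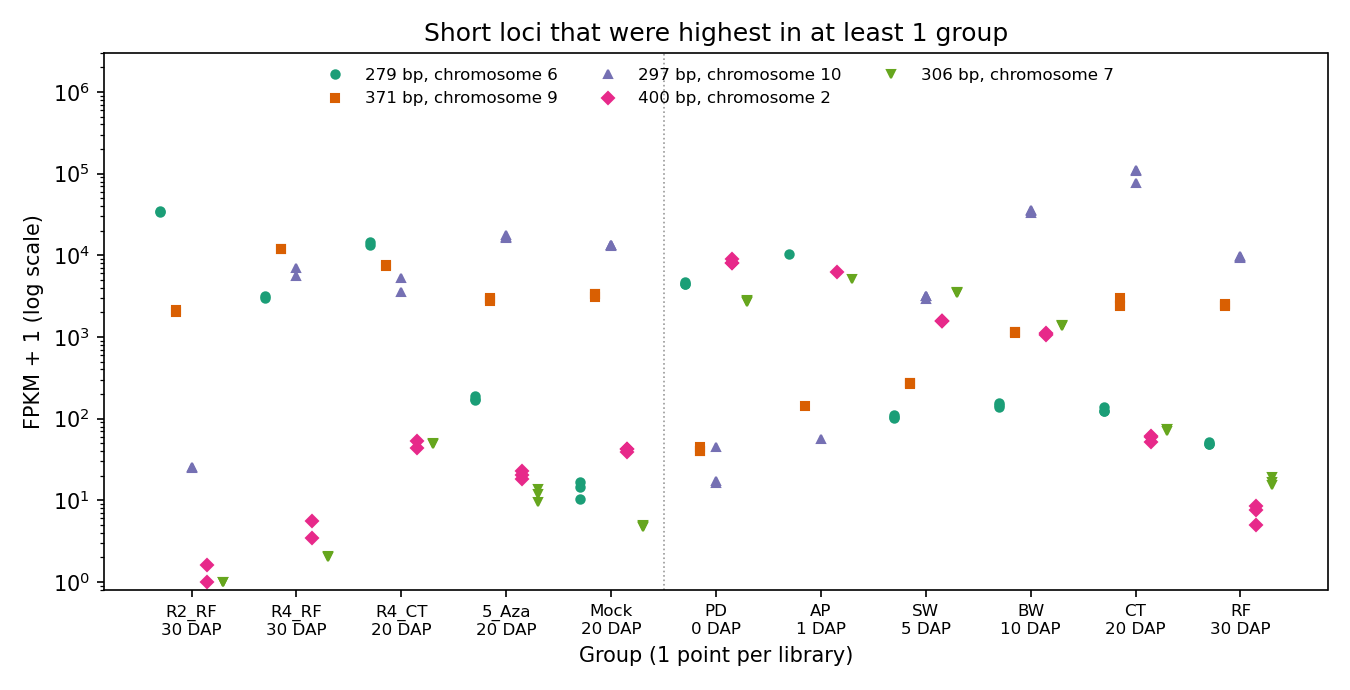
FPKM + 1 (log scale) of the 5 short loci that were highest of their class in at least 1 group, with 1 point per library and groups along the horizontal axis. The 297 bp locus on chromosome 10 peaks in CT at up to 110618 FPKM, the 279 bp locus on chromosome 6 in R2_RF at up to 34620 FPKM, the 400 bp locus falls through the flesh stages, and the 306 bp locus falls from BW on.

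Short loci were detected in fewer groups than longer ones. A group counted where every library reached 1 FPKM, and a missing value counted as not reached. All 11 groups counted for 406 of the 1730 (23.5%), against 55.2% of loci of 1000 to 5000 bp. No group counted for 643 (37.2%), against 16.1%, and 218 (12.6%), against 3.96%, were listed at 0 in every library. By group mean, 584 (33.8%) stayed under 1 FPKM in all groups, against 15.3% of the longer loci. Of the loci with at least 1 group counted, 25.7% of the short and 10.5% of the longer ones had only 1 to 3.

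Stage specificity was described by tau, which is 0 for a locus at one level in all 6 stages and 1 for a locus found in a single stage, computed on log2(FPKM + 1) of the stage means. Its median was 0.397 over the 1020 short loci with a highest stage mean of 1 FPKM or more, against 0.221 over 10251 longer loci. Low loci have higher tau, and short loci are lower on the whole, so loci of like level were set side by side. With a highest stage mean of 1 to 5 FPKM the medians were 0.643 and 0.523, at 5 to 20 FPKM 0.426 and 0.262, at 20 to 100 FPKM 0.202 and 0.17, and at 100 FPKM or more 0.258 and 0.143, short loci first in each pair. Tau was higher for short loci at each level. Tau of 0.8 or more was found for 104 short loci (10.2%, against 2.44% of the longer), and 84 of these had a highest stage mean under 5 FPKM, where a locus of 201 bp can owe its level to a few fragments. With a pseudocount of 0.1 the median tau of short loci was 0.264. The value for longer loci at that pseudocount is not given here, so the contrast between the classes was not checked there.

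Short loci reached their highest stage mean in AP in 23.6% of cases, which is 1 library, in PD in 19.2%, in SW in 18.4%, in RF in 17.5%, in BW in 12.6% and in CT in 8.53%. Longer loci did so in PD in 28.6% and in AP in 18.9% of cases. The most stage-restricted loci at 10 FPKM or more illustrate the range. In PD it was chr6:5765801-5766151 (351 bp), with 153, 132 and 142 FPKM in PD (537, 524 and 560 fragments), 71.9 FPKM in AP, and at most 0.429 FPKM in any later stage library. In BW it was chr3:26275626-26275829 (204 bp), with 62.8, 54.5 and 58.6 FPKM (54, 47 and 57 fragments), against at most 8.72 FPKM in any other stage library. In RF it was chr1:28608498-28608755 (258 bp), with 18.3, 12.5 and 13.0 FPKM, against 1.5 and 0.413 FPKM in the 2 CT libraries with a value for it and 0 in all earlier stages. By stage means it was the 1 short locus at 10 FPKM or more in one stage and under 1 FPKM in all others. The same held for 9 longer loci. For AP it was chr7:27136514-27136702 (189 bp), whose 15.5 FPKM rested on 10 fragments of 1 library, and whose PD libraries had 0, 4 and 1. For SW it was chr4:18752844-18753174 (331 bp) with 17.6, 35.0 and 15.2 FPKM, and for CT chr1:4400899-4401279 (381 bp) with 7.38, 14.0 and 13.6 FPKM in CT and 10.7, 9.1 and 14.0 FPKM in RF, which overlapped.

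Differences between groups were tested with limma on log2(FPKM + 1) over all loci that reached 1 FPKM in enough libraries, and fold changes are on that scale, which understates changes of low loci. Of the short loci 980 passed this filter for the stages, 802 for 5_Aza and Mock, and 964 for rind and flesh. In the pairs of percentages below, the share of the tested short loci comes first, then that of all tested loci. Between any stages, 780 of 973 short loci with a value in every stage differed at an adjusted p under 0.05 (80.2%, against 96.5% of all loci). A range of stage means of 2-fold or more was called for 705 of them (72.5%), against 71.2% of all loci.

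The question of the stage series is which transcripts follow fruit set, growth and ripening. In SW relative to PD, 555 of 980 short loci were called (56.6%, against 78.2% of all 17337 tested loci). These were 297 rises (30.3%, against 37.2%) and 258 falls (26.3%, against 41.0%). Changes of 2-fold or more were 200 up (20.4%, against 11.6% of all loci) and 137 down (14.0%, against 12.3%). The median log2 ratio was 0.05 over short loci and -0.03 over all. The largest rise was that of chr10:21559312-21559608, given above (log2 ratio 7.03, SE 0.29, limma adjusted p = 1.43e-10). Next was chr9:16508311-16508644 (334 bp), with 872, 914 and 916 FPKM in SW and 6.52, 11.2 and 14.5 FPKM in PD (6.32, SE 0.27, limma adjusted p = 1.79e-10). Both stage groups were tight relative to the gap between them. The PD locus chr6:5765801-5766151 fell to 0 in the 3 SW libraries (log2 ratio -7.16, SE 0.1, limma adjusted p = 3.32e-15). At chr10:21643784-21644074 (291 bp) SW had 0, 0.382 and 0.343 FPKM and PD 100, 142 and 135 FPKM (-6.67, SE 0.31, limma adjusted p = 3.97e-10). In fragments, the SW libraries of that locus held 0, 1 and 1 and the PD libraries 214, 345 and 323.

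In BW relative to SW, 421 short loci were called (43.0%, against 70.9% of all loci). Of them 157 rose (16%, against 24.8%) and 264 fell (26.9%, against 46.1%). Changes of 2-fold or more were 71 up (7.24%, against 5.25%) and 135 down (13.8%, against 10.2%). The median log2 ratio was -0.14 over short loci and -0.15 over all. Median-of-ratios scaling shifted the latter by 0.13, so the balance of rises and falls depends on the scaling. Among those that rose was chr11:24673653-24673973 (321 bp), with 77.8, 74.3 and 80.6 FPKM in BW and 3.74, 4.32 and 4.72 FPKM in SW (log2 ratio 3.9, SE 0.09, limma adjusted p = 4.75e-13). The BW locus chr3:26275626-26275829, at 1, 2 and 4 fragments in SW, had the other of the largest rises (4.04, SE 0.5, limma adjusted p = 9.57e-06). Early loci dropped further. At chr7:2042902-2043252 (351 bp) BW had 3.89, 4.42 and 4.78 FPKM and SW 252, 259 and 250 FPKM (-5.57, SE 0.25, limma adjusted p = 6.6e-10), and no rind, 5_Aza or Mock library had a value above 0. At chr9:35684709-35685035 (327 bp) BW had 13.9, 10.8 and 15.9 FPKM and SW 567, 607 and 641 FPKM (-5.4, SE 0.3, limma adjusted p = 4.02e-09).

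In CT relative to BW, 447 short loci were called (45.6%, against 71.4% of all loci). These were 147 rises (15.0%, against 24.8%) and 300 falls (30.6%, against 46.6%). By 2-fold or more 68 rose (6.94%, against 5.0%) and 173 fell (17.7%, against 13.4%). Medians of the log2 ratio were -0.23 over short loci and -0.16 over all. Scaling by the median of ratios shifted the latter by 0.17, so here too the balance of rises and falls depends on the scaling. One of the 2 largest rises was that of chr1:30183818-30184087 (270 bp), with 257, 261 and 243 FPKM in CT (575, 602 and 675 fragments) and 9.28, 6.85 and 5.77 FPKM in BW (22, 16 and 15 fragments). Its log2 ratio was 4.96 (SE 0.14, limma adjusted p = 4.55e-12). For chr5:35693187-35693384 (198 bp), where 1 fragment is worth over 1 FPKM, CT had 243, 251 and 260 FPKM and BW 5.29, 6.57 and 0 FPKM, which is 4, 5 and 0 fragments (6.12, SE 0.85, limma adjusted p = 2.58e-05). Among the falls, chr10:23682074-23682352 (279 bp) had 2.82, 0.786 and 0.327 FPKM in CT and 254, 236 and 228 FPKM in BW (-6.85, SE 0.3, limma adjusted p = 2.92e-10). At chr2:5602271-5602603 (333 bp) CT had 0.74, 1.46 and 0.206 FPKM and BW 61.6, 53.3 and 55.5 FPKM (-5.06, SE 0.19, limma adjusted p = 6.68e-11).

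In RF relative to CT, 338 short loci were called (34.5%, against 61.4% of all loci). These were 174 rises (17.8%, against 33.3%) and 164 falls (16.7%, against 28.1%). By 2-fold or more 86 rose (8.78%, against 5.24%) and 59 fell (6.02%, against 4.08%). Scaled by the median of ratios, 169 rose and 189 fell. The locus at chr4:1939752-1939973 (222 bp) returned, with 430, 429 and 425 FPKM in RF and 4.38, 10.0 and 6.23 FPKM in CT (log2 ratio 5.83, SE 0.3, limma adjusted p = 2.94e-09), after 200, 205 and 183 FPKM in PD. At chr2:1402492-1402749 (258 bp) RF had 78.3, 76.3 and 94.2 FPKM and CT 2.58, 2.5 and 1.65 FPKM (4.7, SE 0.23, limma adjusted p = 1.55e-09). At chr11:7970524-7970829 (306 bp) RF had 0.273, 0 and 0.306 FPKM and CT 44.8, 40.3 and 38.6 FPKM (-5.15, SE 0.24, limma adjusted p = 7.55e-10). For chr10:31744629-31744958 (330 bp) RF had 5.64, 4.34 and 5.82 FPKM and CT 66.4, 69.8 and 72.7 FPKM (-3.5, SE 0.1, limma adjusted p = 6.17e-12). None of these 4 loci had overlapping groups, which was a condition for naming them. Of the short loci called at 2-fold or more whose fragments could be read, 214 of 296 (SW over PD), 141 of 183 (BW over SW), 150 of 205 (CT over BW) and 96 of 124 (RF over CT) had 10 or more fragments in every library of the higher group.

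The compound usually called 5-Aza, 5-azacytidine, is an inhibitor of DNA methyltransferases. In 5_Aza relative to Mock, 337 of 802 short loci were called (42.0%, against 42.8% of all 15552 tested loci). These were 252 rises (31.4%, against 29.5%) and 85 falls (10.6%, against 13.3%). By 2-fold or more 55 rose (6.86%, against 4.09%). The median log2 ratio was 0.11 over short loci and 0.07 over all. The rise in number depends in part on scaling: with libraries scaled by the median of ratios 202 rose and 129 fell. The locus at chr7:810712-811068 (357 bp) had 17.0, 13.6 and 16 FPKM in 5_Aza and 0.0735, 0.099 and 0.31 FPKM in Mock (log2 ratio 3.83, SE 0.12, limma adjusted p = 2.4e-09). Outside 5_Aza it was under 1 FPKM in every library. A second short locus, chr10:20497772-20498167, chosen after its values were seen, also was above 5 FPKM in the 3 5_Aza libraries alone, at 5.43 to 5.68 FPKM there and at most 0.68 FPKM elsewhere. Among all loci 9 showed this pattern, 4 of them of 1000 to 5000 bp. At chr6:7869239-7869505 (267 bp) 5_Aza had 33.3, 24.2 and 23.6 FPKM and Mock 0.97, 1.58 and 0.881 FPKM (3.71, SE 0.15, limma adjusted p = 1.32e-08). This locus also had 2943, 2892 and 2929 FPKM in PD, and 56.4, 58.3 and 42.0 FPKM in CT. The 1 short locus that fell by 2-fold or more (0.186% of all loci did) was the PD-high chr2:2337240-2337639, with 19.1, 17.2 and 21.6 FPKM in 5_Aza and 41.4, 41.1 and 38.5 FPKM in Mock (-1.03, SE 0.08, limma adjusted p = 1.22e-06). At each of these loci, groups without overlap were a condition of the choice. The highest short locus in both groups, chr10:21559312-21559608, rose by 0.36 on the log2 scale (SE 0.04, limma adjusted p = 1.63e-05).

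Rind was set against flesh to find tissue differences. Within 1 number format, in R4_CT relative to Mock, 563 of 964 short loci were called (58.4%, against 75.5% of all 17101 tested loci). In R4_CT 362 were higher (37.6%, against 42.1%) and 201 lower (20.9%, against 33.4%). By 2-fold or more 223 were higher (23.1%, against 16.9%) and 121 lower (12.6%, against 9.99%). The median log2 ratio was 0.22 over short loci and 0.09 over all. The rind-high chr6:7824799-7825077 differed most (log2 ratio 10.02, SE 0.14, limma adjusted p = 1.02e-14). At chr9:4638468-4638770 (303 bp) R4_CT had 130 and 116 FPKM and Mock 0.305, 0.477 and 0.64 FPKM (6.4, SE 0.21, limma adjusted p = 3.35e-12). The other rind libraries had 9.07 to 14.3 FPKM at that locus, and the 3 CT libraries had 0, 0.311 and 0 FPKM. At chr5:32759416-32759721 (306 bp) R4_CT had 0.18 and 0.227 FPKM and Mock 501, 518 and 447 FPKM (-8.67, SE 0.13, limma adjusted p = 1.53e-15). Its CT libraries had 29.7, 24.2 and 24.9 FPKM, between rind and Mock. At chr1:5802824-5803084 (261 bp) R4_CT had 12.0 and 8.67 FPKM and Mock 281, 292 and 292 FPKM (-4.69, SE 0.1, limma adjusted p = 7.98e-14). Against CT, in the other format, 676 short loci were called for the same R4_CT libraries (70.1%, against 79.1% of all loci). In R4_CT 446 were higher (46.3%, against 51.1%) and 230 lower (23.9%, against 28.0%). By 2-fold or more 319 were higher (33.1%, against 24.8%) and 137 lower (14.2%, against 7.53%). Both comparisons share the R4_CT libraries. For R4_CT over CT, median-of-ratios scaling shifted the median over all loci, 0.27, by -0.2, so the excess of higher loci depends on the scaling. At chr10:31744629-31744958 R4_CT had 0 and 0.471 FPKM and CT 66.4, 69.8 and 72.7 FPKM (-5.86, SE 0.16, limma adjusted p = 4.01e-13), and Mock had 20.9, 21.1 and 16.9 FPKM. At chr1:5802824-5803084 CT had 463, 454 and 507 FPKM, above all Mock and R4_CT libraries.

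At 30 DAP, 645 short loci were called for R4_RF relative to RF (66.9%, against 73.1% of all loci). In R4_RF 405 were higher (42.0%, against 45.1%) and 240 lower (24.9%, against 28.1%). By 2-fold or more 278 were higher (28.8%, against 18.0%) and 156 lower (16.2%, against 6.03%). For R2_RF relative to RF 728 were called (75.5%, against 82.6% of all loci). In R2_RF 428 were higher (44.4%, against 45.9%) and 300 lower (31.1%, against 36.7%). By 2-fold or more 333 were higher (34.5%, against 24.2%) and 207 lower (21.5%, against 15.4%). Both comparisons share the RF libraries and cross formats, and the part of the format in them was not tested. Median-of-ratios scaling shifted the median over all loci by -0.13 for R4_RF over RF and -0.06 for R2_RF over RF. At chr9:4689329-4689589 (261 bp) R4_RF had 58.5 and 76.1 FPKM, and RF, CT and BW libraries were all listed at 0 (6.08 for R4_RF over RF, SE 0.14, limma adjusted p = 9.91e-14), while Mock had 9.75, 10.3 and 9.82 FPKM. At chr1:28018939-28019250 (312 bp) R4_RF had 100 and 92.6 FPKM and R2_RF 194 and 203 FPKM, whereas the RF libraries were listed at 0 and Mock had at most 0.168 FPKM (6.61 for R4_RF over RF, SE 0.13, limma adjusted p = 4.41e-14). In the other direction, chr7:3379110-3379316 (207 bp) had 2.34 and 2.57 FPKM in R4_RF and 368, 415 and 394 FPKM in RF (-6.83, SE 0.21, limma adjusted p = 1.88e-11). The locus chr4:1939752-1939973 was listed at 0 in both R2_RF libraries and had 4.04 and 3.71 FPKM in R4_RF, against 430, 429 and 425 FPKM in RF. The locus chr1:5802824-5803084 had 0.152 and 0 FPKM in R2_RF and 434, 422 and 451 FPKM in RF (-8.67 for R2_RF over RF, SE 0.1, limma adjusted p = 9.21e-17).

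One short locus was at 5 FPKM or more in all 6 rind libraries and under 1 FPKM in all 22 usable flesh libraries. This was chr1:28046553-28046915 (363 bp), with 20.7 and 22.4 FPKM in R2_RF, 39.2 and 36.2 FPKM in R4_RF, and 7.83 and 9.72 FPKM in R4_CT, and at most 0.998 FPKM in flesh. The reverse held for chr2:26162517-26162912 (396 bp), with at most 0.664 FPKM in rind and 5.09 to 46.0 FPKM in flesh, 12.0, 12.8 and 12.0 FPKM of it in Mock. Among all loci these 2 patterns were shown by 3 and 1. Across number formats, 46 loci had 0 in the 12 stage libraries from 5 DAP but 5 FPKM or more in the 12 others. These others are the Mock, 5_Aza and rind libraries. Of the 46 loci, 3 were short. They are chr5:25327248-25327468, chr9:20228298-20228530 and chr10:34606086-34606368, chosen after their values were seen, and the last had 24.1 to 35.5 FPKM in the 12 libraries and 0 in all 16 stage libraries. The reverse was shown by 1 locus of the series, the short chr5:34742535-34742865, at 24.0 to 76.0 FPKM in the stage libraries from 5 DAP and at 0 in the 12 others. The 2 sets of libraries also differ in tissue and treatment, and the part of the format in these patterns was not tested.

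The rind labels also differed from each other. In R2_RF relative to R4_RF, 471 short loci were called (48.9%, against 67.5% of all loci). In R2_RF 220 were higher (22.8%, against 30.4%) and 251 lower (26.0%, against 37.1%). By 2-fold or more 123 were higher (12.8%, against 9.24%) and 124 lower (12.9%, against 11%). Scaled by the median of ratios, 239 were higher and 237 lower. At chr6:7869239-7869505 R2_RF had 96.4 and 85.8 FPKM and R4_RF 1.31 and 1.6 FPKM (log2 ratio 5.23, SE 0.24, limma adjusted p = 1.02e-09). At chr2:5602271-5602603 R2_RF had 532 and 517 FPKM and R4_RF 18.2 and 18.4 FPKM (4.77, SE 0.24, limma adjusted p = 1.12e-09), and RF flesh had at most 0.248 FPKM. The locus chr10:21559312-21559608, which peaked in CT, was far lower in R2_RF (-7.95, SE 0.19, limma adjusted p = 2.27e-12). So was chr1:5802824-5803084, with the R2_RF values above and 42.2 and 46.9 FPKM in R4_RF (-5.41, SE 0.11, limma adjusted p = 7.31e-14). Both loci were high in 20 and 30 DAP flesh and low in R2_RF.

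With age, 300 short loci were called for R4_RF relative to R4_CT (31.1%, against 50.2% of all loci). In R4_RF 137 were higher (14.2%, against 24.3%) and 163 lower (16.9%, against 25.9%). By 2-fold or more 48 were higher (4.98%, against 3.06%) and 88 lower (9.13%, against 7.7%). At chr8:26458642-26458905 (264 bp) R4_RF had 102 and 91.6 FPKM and R4_CT 4.7 and 5.98 FPKM (log2 ratio 3.95, SE 0.31, limma adjusted p = 3.4e-07), while no flesh library passed 1.68 FPKM. At chr5:7931024-7931377 (354 bp) R4_RF had 31.5 and 33.4 FPKM and R4_CT 1.52 and 1.63 FPKM (3.7, SE 0.24, limma adjusted p = 5.32e-08). The young-flesh locus chr7:31179192-31179497 had 0.999 and 1.06 FPKM in R4_RF and 48.3 and 49.6 FPKM in R4_CT (-4.62, SE 0.09, limma adjusted p = 3.19e-13). The BW locus chr3:26275626-26275829 had 1.26 and 0.345 FPKM in R4_RF and 51.0 and 45.8 FPKM in R4_CT (-4.82, SE 0.52, limma adjusted p = 1.2e-05).

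In each of the 11 comparisons the share of tested loci called in either direction was lower for short than for longer loci. The share called at 2-fold or more was higher for short loci in both directions, except for the 5_Aza falls. These shares are descriptions of loci that passed the filter, and the difference between the classes was not tested. For SW over PD, 56.6% of the tested short and 80.4% of the tested longer loci were called, but 20.4% and 10.7% rose by 2-fold or more. For R4_RF over RF the called shares were 66.9% and 74.5%, and 28.8% and 17.2% for 2-fold rises. For 5_Aza over Mock they were closest, 42.0% and 44.4% called, and 6.86% and 4.25% for 2-fold rises.

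**Figure D5:**
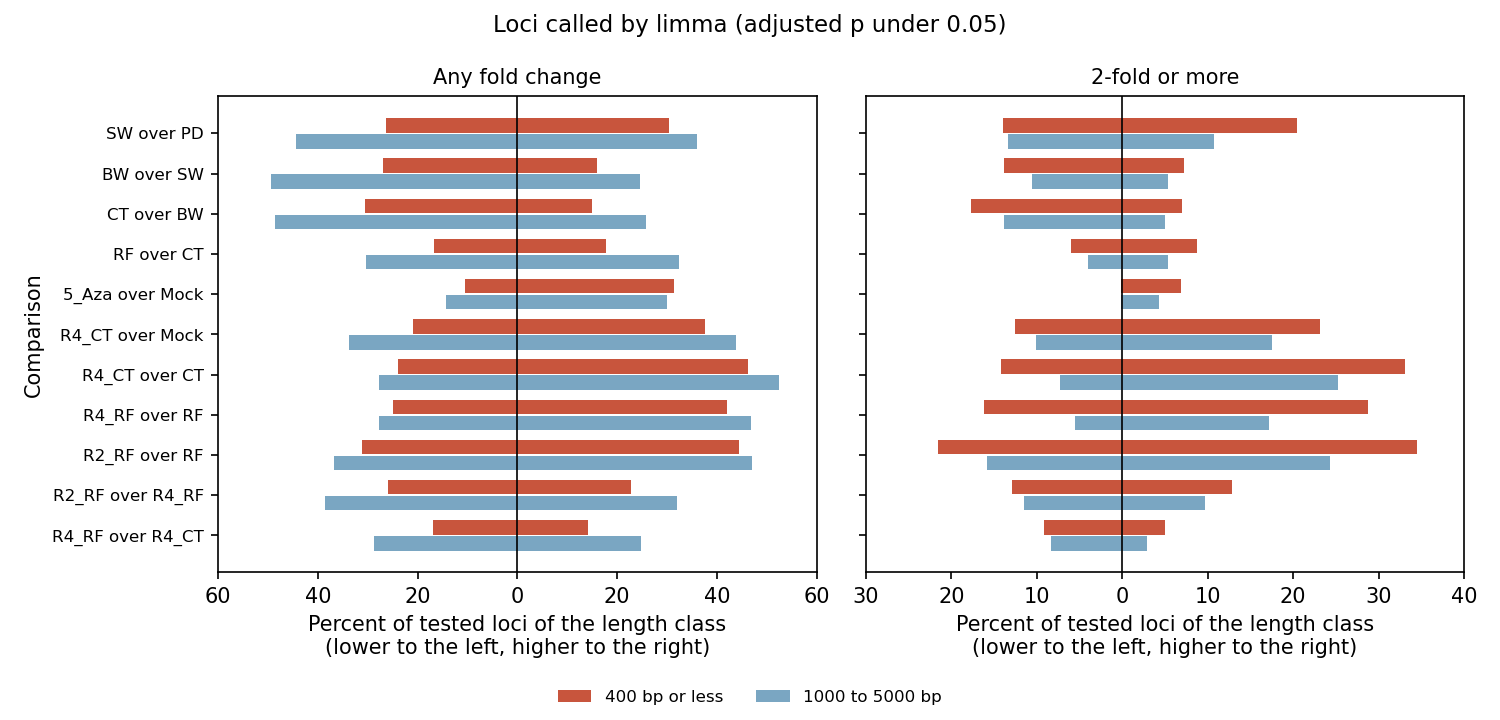
Percent of the tested loci of each length class called lower (left) or higher (right) by limma at an adjusted p under 0.05 in 11 comparisons, for any fold change and for 2-fold or more, with loci of 400 bp or less in red and of 1000 to 5000 bp in blue. For SW over PD the red bars reach 26.3% and 30.3% and the blue 44.5% and 35.9% at any fold, and 14.0% and 20.4% against 13.4% and 10.7% at 2-fold or more.

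Replicates of short loci varied more than those of longer loci, and the more so in the stage libraries. The measure was the median coefficient of variation between the libraries of a group, over loci of like group mean. At 1 to 5 FPKM it was 18.6% to 22.4% for short loci across the Mock, 5_Aza and rind groups and 41.1% to 45.2% across the stage groups other than AP, so that the 2 number formats did not overlap. At 5 to 20 FPKM it was 9.59% to 11.8% across the same 5 groups with 6 decimals and 18.6% to 22.3% across the stage groups, and at 20 to 100 FPKM 5.62% to 6.87% and 10.1% to 13.9%. Longer loci showed no such split, with 10.4% to 13.6% and 10.5% to 12.3% at 1 to 5 FPKM, and 5.29% to 7.04% and 5.21% to 7.36% at 5 to 20 FPKM. At 100 FPKM or more the formats overlapped for short loci too, at 4.22% to 6.39% and 4.03% to 10.6%, against 2.33% to 3.52% and 1.99% to 6.57% for longer loci. Correlations between replicates on log2(FPKM + 1) were 0.969 to 0.994 over short loci and 0.993 to 0.997 over all loci.

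Neighbouring short loci tended to have like profiles. In 47 pairs of adjacent short loci that both reached a group mean of 10 FPKM, the median correlation of log2(FPKM + 1) over the 11 group means was 0.581 (quartiles 0.108 and 0.872), and 17 pairs (36.2%) were above 0.8. In 3346 adjacent pairs of loci of 1000 to 5000 bp the median was 0.158 (quartiles -0.341 and 0.579), and 10.4% were above 0.8. The short pairs lay further apart, with a median gap of 6894 bp against 3830 bp. These are descriptions over loci that share the same libraries, and whether neighbours are near-identical copies that share reads was not tested.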

How the data were processed

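Per the file headers, the authors gave each locus as FPKM, a unit scaled to length and library size. Which length was used is not given. In the stage libraries the worth of 1 fragment did not follow the span of short loci in proportion. Per the submitters' processing notes, fastp, HISAT2 and SAMtools 1.5 were used; how FPKM were computed, on which build and with which annotation, is not given in the sources used here. Each row names a locus, and rows were checked for alignment between libraries. Short loci and the lists below were chosen with earlier results of these data known. Fragment steps were read from low values (up to 60 fragments) of loci of one length; fragment numbers are estimates, no count test was run, and depth is unknown for the 12 Mock, 5_Aza and rind libraries.

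Tests were run on log2(FPKM + 1) with limma 3.58.1 (R 4.3.3; variance trend and robust moderation), with Benjamini-Hochberg adjustment over all tested loci and calls at an adjusted p under 0.05. The filter asked for 1 FPKM in at least 3 libraries (stages, 5_Aza and Mock) or 2 (CT, RF, Mock and rind). The 3 fits had 16, 6 and 15 libraries, with 10, 4 and 9 residual degrees of freedom; groups within a fit share 1 estimate of the spread, and the lone AP library is assumed to vary like the others. A single comparison of each fit (SW over PD, 5_Aza over Mock and R4_CT over Mock) was checked on simulated data, and the other tests were not. Summaries used Python 3.11.15, pandas 2.3.3, numpy 2.4.6 and scipy 1.17.1. Named loci are the highest of each group, per comparison up to 2 risen and 2 fallen with the largest fold change (non-overlapping libraries, mean of 10 FPKM or more in the higher group), the highest tau per stage, and loci of 1 tissue. Alternatives were a pseudocount of 0.1, no filter, median-of-ratios scaling, a replicate block, leaving out each library, and a limit of 300 bp.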

Additional observations from a re-analysis of the deposited data

Results flagged for a closer look

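The change with age, 30 DAP relative to 20 DAP, was compared between rind (R4_RF over R4_CT) and flesh (RF over CT) by an interaction term in limma, a test added after the data were seen. It called 355 of 964 short loci (36.8%, against 53.6% of all tested loci). The change in rind was higher for 147 (15.2%, against 22.8%) and lower for 208 (21.6%, against 30.8%). The R4 libraries have one number format and CT and RF the other, and the part of the format was not tested. The 2 largest differences in each direction follow.

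At chr11:7970524-7970829 the change was -1.25 in rind and -5.15 in flesh on the log2 scale, a difference of 3.9 (SE 0.39, limma adjusted p = 5.42e-06). At chr10:21559312-21559608, the locus that holds up to 12.8% of the summed FPKM of a CT library, the change was 0.54 in rind (limma adjusted p = 0.0308) and -3.36 in flesh (limma adjusted p = 5.02e-07), a difference of 3.9 (SE 0.24, limma adjusted p = 5.25e-08). Mock flesh at 20 DAP, in the number format of the R4 libraries, was lower there than CT, at 13106 against 99167 FPKM. At chr2:1402492-1402749 the change was -0.47 in rind (limma adjusted p = 0.277) and 4.7 in flesh, a difference of -5.17 (SE 0.44, limma adjusted p = 8.86e-07). At chr3:26275626-26275829 the change was -4.82 in rind and -0.36 in flesh (limma adjusted p = 0.568), a difference of -4.46 (SE 0.67, limma adjusted p = 0.00017). In flesh this locus had 1, 3 and 9 fragments in CT and 2, 2 and 3 in RF.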

How the results depend on the processing

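Counts of called short loci, both directions together, stayed within 1.5 times in all 12 tests under a pseudocount of 0.1, no filter, median-of-ratios scaling, the replicate block, a variance trend fitted apart for short loci (an alternative added after seeing the data) and leaving out each library. By direction, falls in 5_Aza over Mock numbered 129 under median-of-ratios scaling and 85 in the reported fit, and the cause was not tested. Samples that share a replicate number deviated together with correlations of -0.103 to 0.135, so the numbers were not taken as pairs. With a replicate block the stage counts were 544, 426, 450 and 339 for SW over PD, BW over SW, CT over BW and RF over CT, 780 for any stage, 343 for 5_Aza over Mock, 563 for R4_CT over Mock, 690 for R4_CT over CT, 659 for R4_RF over RF, 733 for R2_RF over RF, 490 for R2_RF over R4_RF and 315 for R4_RF over R4_CT. A limit of 300 bp, which leaves fewer loci, gave 239, 171, 185 and 142 for these stage comparisons, 351 for any stage, 161 for 5_Aza over Mock, 247 for R4_CT over Mock, 302 for R4_CT over CT, 298 for R4_RF over RF, 332 for R2_RF over RF, 193 for R2_RF over R4_RF and 122 for R4_RF over R4_CT. Over all loci, the median log2 ratio shifted under median-of-ratios scaling by 0.13 for BW over SW, 0.17 for CT over BW, -0.2 for R4_CT over CT and -0.13 for R4_RF over RF. The share of summed FPKM at 300 bp was 5.71% in R2_RF, 3.19% in R4_RF, 4.21% in R4_CT, 4.08% in 5_Aza, 3.42% in Mock, 3.99% in PD, 4.88% in AP, 3.3% in SW, 6.79% in BW, 13.8% in CT and 4.49% in RF. At 400 bp without the highest locus, which stayed in the total, it was 5.18%, 6.13%, 6.58%, 4.73%, 4.46%, 7.54%, 8.38%, 6.84%, 6.06%, 4.79% and 6.18% in the same order. Median tau was 0.367 without 1 DAP and 0.25 at 10 FPKM or more, and the median coefficient of variation over groups was 5.66% at 50 FPKM or more, against 8.67% at 10 FPKM or more. Without 1 of the CT libraries its share was 15.6% to 17.4%. Near 200 bp a single fragment passes 1 FPKM, and 0 there does not show absence.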
